A study of Saccharomyces cerevisiae with 6 samples.

Results

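The mitochondrial protein import machinery was followed on 6 arrays as a list of 32 named genes out of the 5449 genes of *S. cerevisiae* that could be paired with a probe set (5498 probe sets). The genes were matched by symbol in the platform's table of probe sets, all 32 were found, and each had 1 probe set of its own, so that no choice between probe sets was needed. By the place of their products, 12 belong to the outer membrane, 7 to the intermembrane space, 11 to the inner membrane and 2 to the matrix. The haploid strain BY4742 (MATα, with the mutations *his3*Δ1, *leu2*Δ0, *lys2*Δ0 and *ura3*Δ0 in every group) was grown for 24 h in YPD, a rich medium with glucose, and then moved for another 24 h to fresh YPD alone (untreated control), to YPD with 0.27 mg/L nystatin, or to YPD with 0.27 mg/L nystatin and 100 mg/L cadmium sulphide quantum dots (CdS QDs). Nystatin, a polyene that binds ergosterol and opens pores in the fungal membrane, served to let the particles into the cells, and CdS QDs without nystatin were not analysed here. The nystatin dose is that of the labels, and the methods of the study state a slightly lower one. Below, the group that had both is called the CdS QDs group. Each group has 2 arrays, which the methods describe as aliquots of total RNA extract, so p-values measure the spread between these arrays, which may be technical.

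Nearly all mitochondrial proteins are made in the cytosol and carried into the organelle by this machinery. The TOM complex is the common gate of the outer membrane, and the SAM complex inserts barrel-shaped proteins there. In the intermembrane space small Tim proteins escort hydrophobic precursors, and the Mia40-Erv1 relay traps small proteins by forming disulphide bonds. In the inner membrane the TIM23 complex takes up proteins with a cleavable presequence, helped by a motor built around the chaperone Ssc1, while the TIM22 complex inserts metabolite carriers. The matrix processing peptidase then cuts the presequence off. Several subunits of these complexes are essential for growth of yeast.

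The arrays report log2 values made by RMA, a method that gives every array the same overall distribution. The median of the *S. cerevisiae* probe sets lay at 7.72 to 7.73 on every array. All 32 import genes lay above background on every array (1.42 to 1.48, the level below which 95% of probe sets made for *S. pombe* lay). So did 98.8 to 99.2% of all *S. cerevisiae* probe sets, so that this does not set the import genes apart. The probe sets of *LYS2* and *URA3*, deleted in BY4742, were below background on all 6 arrays. That of *LEU2*, also deleted, was above it on 4 with a highest value of 2.29. Probe sets of these absent genes still passed the limma test used below. In the CdS QDs group against untreated cells *LEU2* rose by 0.55 (adjusted p = 0.00319) and *LYS2* fell by 0.21 (adjusted p = 0.00369). With nystatin alone *LYS2* fell by 0.20 and *URA3* by 0.23. Calls on small changes below are to be read beside these. The 4 marker genes of α cells were above background throughout (5.22 to 9.61), and so were the 4 genes of **a** cells (*MFA1*, *MFA2*, *STE2* and *BAR1*, 3.63 to 5.79), which α cells normally keep off. These markers moved with the groups. The mean of the 4 α genes was 6.79 and 6.81 in untreated cells, 7.20 and 7.24 under nystatin and 8.79 and 8.75 in the CdS QDs group, where all 4 rose, by 0.24 for *STE3* to 3.33 for *MF(ALPHA)2*. The mean of the **a** genes was 4.80 and 4.75, then 4.64 and 4.57, then 4.56 and 4.49, and in the CdS QDs group *STE2* fell by 1.10, *BAR1* fell by 0.20 and *MFA2* rose by 0.26. Their part in the differences below was not tested. Among 7 control genes with probes at both ends, 3′ probes were brighter than 5′ ones by 1.41 to 1.47 on the untreated control and nystatin arrays and by 1.58 on both CdS QDs arrays, and the part of this in the differences below was not tested. Only values of the same probe set are compared below, since the brightness of different probe sets is not a measure of relative abundance.

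In the CdS QDs group transcripts of the import machinery were mostly higher than in the untreated control. The arrays did not measure protein amounts or import. Of the 32 genes, 22 rose, where 36.5% of all probe sets tested rose, and 4 fell, where 38.9% fell, so that 26 of 32 changed against 75.4% of all. "Rose" and "fell" stand for an adjusted p under 0.05 in limma, fitted over all *S. cerevisiae* probe sets. The median log2 fold change was 0.27 for the import genes and −0.01 for all probe sets. The changes ran from −0.54 for *TIM21* to 1.06 for *TOM5*, and 30 of them were under 1 in size. At a log2 fold change of 1 or more with an unadjusted p under 0.01, the thresholds of the study, stood *TOM5* and *TOM7* (4.95% of all probe sets were higher at these thresholds), and no import gene was lower by that measure (5.15% of all). Both are among the genes that the study itself selected on these arrays, which is not independent evidence of their direction. The groups did not overlap for 30 of the 32 genes, against 87.5% of all probe sets, with *MIA40* and *TIM50* as the exceptions.

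**Figure D1:**
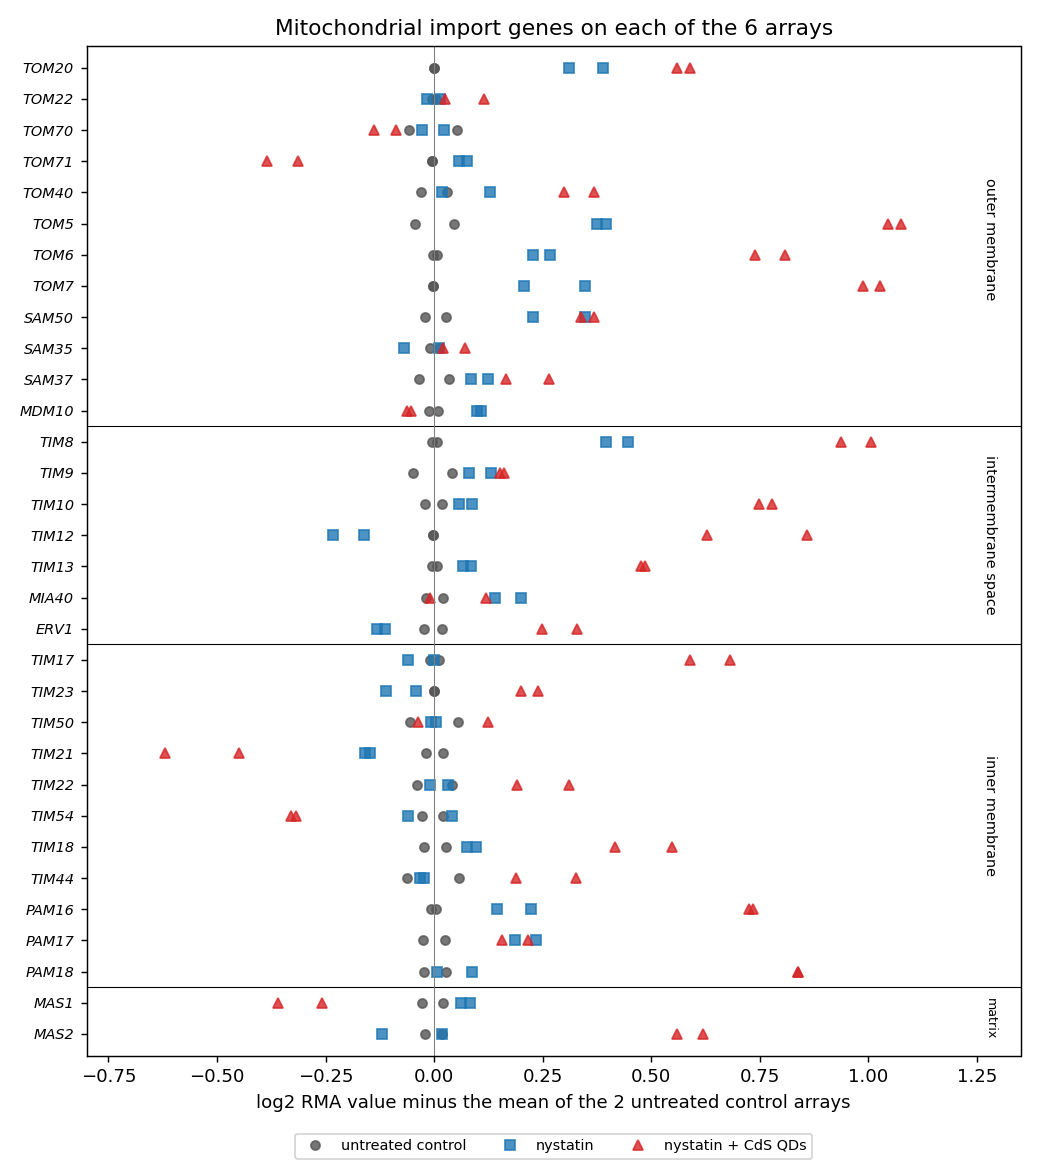
Log2 RMA value of each import gene on each array (1 point per array) minus the mean of its 2 untreated control arrays, with horizontal lines between the parts of the organelle. The CdS QDs arrays (triangles) lie to the right of the controls (circles) for most genes, and farthest to the right for *TOM5*, *TOM7* and *TIM8*, while those of *TIM21*, *TOM71*, *TIM54* and *MAS1* lie to the left.

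The small subunits of the TOM complex gave the steepest rise of the outer membrane. *TOM5*, which helps to pass precursors from the receptors to the channel, was at 8.09 and 8.18 in untreated cells, 8.53 and 8.51 under nystatin and 9.21 and 9.18 in the CdS QDs group. The 3 groups stood apart, with nystatin between the others. Between untreated cells and the CdS QDs group it rose by 1.06 log2 units (standard error, SE, 0.049, adjusted p = 2.42e-06), which is 2.09-fold. *TOM7*, a subunit that takes part in the assembly and turnover of the complex, had 8.40 on both control arrays, 8.61 and 8.75 under nystatin and 9.43 and 9.39 in the CdS QDs group (1.00, SE 0.0564, adjusted p = 5.85e-06). *TOM6*, which steadies the contact of receptors and channel, went from 9.20 and 9.21 through 9.43 and 9.47 to 10.01 and 9.94 (0.77, SE 0.0462, adjusted p = 7.75e-06). All 3 small subunits had the order control, nystatin, nystatin plus CdS QDs with no overlap between groups. This order is not particular to them. *TOM20*, *SAM37*, *TIM8*, *TIM9*, *TIM10*, *TIM13*, *TIM18* and *PAM16* had it too, and *TIM21* fell in such steps. Groups were apart for 70.1% of all probe sets between control and nystatin. From nystatin to the CdS QDs group it was 87.4%, and from control to the CdS QDs group 87.5%. How many of all probe sets had this order in the 3 groups, or had CdS QDs arrays apart from all others, was not counted. The shares given here stand as well beside each single gene below whose arrays are said to lie apart.

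The channel and the receptors moved less, and not all one way. *TOM40*, the barrel that forms the channel, rose by 0.34 (SE 0.0549, adjusted p = 0.00114), from 9.35 and 9.29 through 9.34 and 9.45 under nystatin to 9.69 and 9.62. Of the receptors, *TOM20*, which recognises presequences, went from 7.87 on both control arrays through 8.18 and 8.26 under nystatin to 8.43 and 8.46, or by 0.58 (SE 0.0459, adjusted p = 2.96e-05). *TOM22*, the central receptor that joins the channels, did not pass the test, with 9.24 and 9.23 against 9.35 and 9.26 (0.07, SE 0.0481, adjusted p = 0.233). *TOM70*, the receptor of carrier precursors, did not pass either, with 8.92 and 8.97 in the CdS QDs group (−0.12, SE 0.053, adjusted p = 0.0842), although an intensity trend in the variance brought its adjusted p to 0.048. Its paralog *TOM71* was at 7.12 on both control arrays, 7.18 and 7.20 under nystatin and 6.81 and 6.74 in the CdS QDs group. It fell by 0.35 (SE 0.0449, adjusted p = 3.35e-04), and its CdS QDs arrays lay below the other 4.

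In the SAM complex 2 of 4 genes rose and 2 did not pass, where 36.5% of all probe sets rose and 38.9% fell. *SAM50*, the barrel at its core, rose by 0.35 (SE 0.0539, adjusted p = 8.15e-04), with 7.49 and 7.44 in untreated cells and 7.80 and 7.83 in the CdS QDs group. Its nystatin arrays, at 7.69 and 7.81, overlapped the latter. *SAM37*, a peripheral subunit, rose by 0.22 (SE 0.0541, adjusted p = 0.00863), a call that ended without untreated control replicate 2 (adjusted p = 0.0635). *SAM35*, which recognises the sorting signal of barrel proteins, was at 0.04 (adjusted p = 0.444). *MDM10*, which serves both this complex and the tether between mitochondria and the endoplasmic reticulum, was at −0.05 (adjusted p = 0.257).

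In the intermembrane space 6 of 7 genes rose (36.5% of all probe sets rose), among them all 5 small Tim proteins. The median log2 fold change was 0.48. *TIM8*, which works with *TIM13* as a chaperone of a subset of precursors such as Tim23, had 7.05 and 7.06 in untreated cells, 7.50 and 7.45 under nystatin and 8.06 and 7.99 in the CdS QDs group. The groups were again in steps without overlap, and the rise came to 0.97 (SE 0.0471, adjusted p = 3.01e-06). Its partner *TIM13* rose by 0.48 (SE 0.0406, adjusted p = 3.84e-05), from 9.13 and 9.12 through 9.19 and 9.21 to 9.61 and 9.60. The essential pair *TIM9* and *TIM10*, whose products form a joint chaperone complex, differed in size of change. *TIM10* went from 9.43 and 9.39 through 9.50 and 9.47 to 10.19 and 10.16 (0.76, SE 0.0425, adjusted p = 5.70e-06). *TIM9* went from 8.67 and 8.76 through 8.80 and 8.85 to 8.88 and 8.87 (0.16, SE 0.0493, adjusted p = 0.0235). This last call ended without untreated control replicate 1 (log2 fold change 0.11). The same held without either CdS QDs array (0.15 without replicate 1 and 0.16 without replicate 2). The *TIM9* call ended as well with no moderation of the variance (adjusted p = 0.054) and with all probe sets of the array in the fit (adjusted p = 0.0785). In the R64 annotation *TIM9* is the next gene to *URA3*, which is deleted in the strain of all 3 groups.

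*TIM12*, the small Tim that docks the others onto the TIM22 complex, was at 6.89 on both control arrays, 6.73 and 6.66 under nystatin and 7.52 and 7.75 in the CdS QDs group. Its 2 CdS QDs arrays differed by 0.234, the widest gap between arrays of a group in the whole list, yet both lay above all others (0.74, SE 0.0773, adjusted p = 1.15e-04). Of the disulphide relay, *ERV1*, the oxidase that recharges Mia40, rose by 0.28 (SE 0.0473, adjusted p = 0.00125), with 7.60 and 7.56 in untreated cells and 7.83 and 7.91 in the CdS QDs group. *MIA40*, the receptor of the relay, was not called (0.05, SE 0.056, adjusted p = 0.429). Its arrays, at 9.23 and 9.19 against 9.33 and 9.20, overlapped.

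Inner membrane genes were split, with 8 of 11 that rose, 2 that fell and 1 that did not pass (median 0.25). In the TIM23 complex 2 of 4 genes rose and 1 fell, and 1 did not pass. These counts stand beside 36.5% of all probe sets that rose and 38.9% that fell. *TIM17*, which lines the path of presequence proteins with *TIM23*, went from 9.12 and 9.14 through 9.07 and 9.13 under nystatin to 9.72 and 9.81, a rise of 0.63 (SE 0.0508, adjusted p = 3.03e-05). *TIM23* rose less, by 0.22 (SE 0.0455, adjusted p = 0.00353), from 8.47 on both arrays to 8.71 and 8.67. *TIM50*, the receptor that hands presequences to the channel, did not pass, and its arrays overlapped, at 8.57 and 8.46 against 8.64 and 8.48 (0.05, SE 0.066, adjusted p = 0.534). *TIM21*, which links the complex to TOM and to the respiratory chain, had 8.57 and 8.61 in untreated cells, 8.44 and 8.43 under nystatin and 7.97 and 8.14 in the CdS QDs group. It fell by 0.54 (SE 0.0618, adjusted p = 1.89e-04), the lowest change of the 32 genes.

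The TIM22 complex was split as well. *TIM18*, a membrane subunit, rose by 0.48 (SE 0.0555, adjusted p = 1.94e-04), from 7.18 and 7.23 to 7.62 and 7.75. The channel gene *TIM22* rose by 0.25 (SE 0.0568, adjusted p = 0.00538), from 6.95 and 6.87 to 7.10 and 7.22. *TIM54*, the subunit with a large domain in the intermembrane space, fell by 0.33 (SE 0.0506, adjusted p = 8.52e-04), from 8.02 and 7.97 to 7.67 and 7.68. Its nystatin arrays, at 7.94 and 8.04, overlapped the controls.

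The 4 genes of the import motor all rose, against 36.5% of all probe sets. *PAM18*, the J-domain protein that stimulates Ssc1, was at 6.93 and 6.98 in untreated cells, 6.96 and 7.04 under nystatin and 7.79 on both arrays in the CdS QDs group (0.84, SE 0.0475, adjusted p = 6.10e-06). *PAM16*, the J-like partner that holds Pam18 in the motor, went from 7.19 and 7.20 through 7.42 and 7.34 to 7.92 and 7.93 (0.73, SE 0.0451, adjusted p = 8.90e-06). These partners were thus higher on both CdS QDs arrays than on any other array. Of all probe sets, 87.5% had CdS QDs arrays apart from the controls and 87.4% apart from nystatin, in either direction. *TIM44*, which anchors Ssc1 at the channel, rose by 0.26 (SE 0.0632, adjusted p = 0.00790), from 8.64 and 8.76 to 8.89 and 9.03. *PAM17*, which takes part in the assembly of the motor, rose by 0.18 (SE 0.0469, adjusted p = 0.00968), from 8.75 and 8.80 to 8.93 and 8.99. Both of these smaller calls ended without untreated control replicate 1 (log2 fold change 0.20 for *TIM44* and 0.16 for *PAM17*). That of *TIM44* ended as well with no moderation of the variance (adjusted p = 0.0572).

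The subunits of the matrix processing peptidase went opposite ways. *MAS2*, the α subunit, which binds the presequence, had 7.01 and 6.97 in untreated cells, 6.87 and 7.01 under nystatin and 7.61 and 7.55 in the CdS QDs group. It rose by 0.59 (SE 0.0596, adjusted p = 9.64e-05). *MAS1*, the catalytic β subunit, had 8.61 and 8.66, then 8.70 and 8.72, then 8.38 and 8.28. It fell by 0.31 (SE 0.0506, adjusted p = 0.00114), and neither gene's CdS QDs arrays overlapped any other array.

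**Figure D2:**
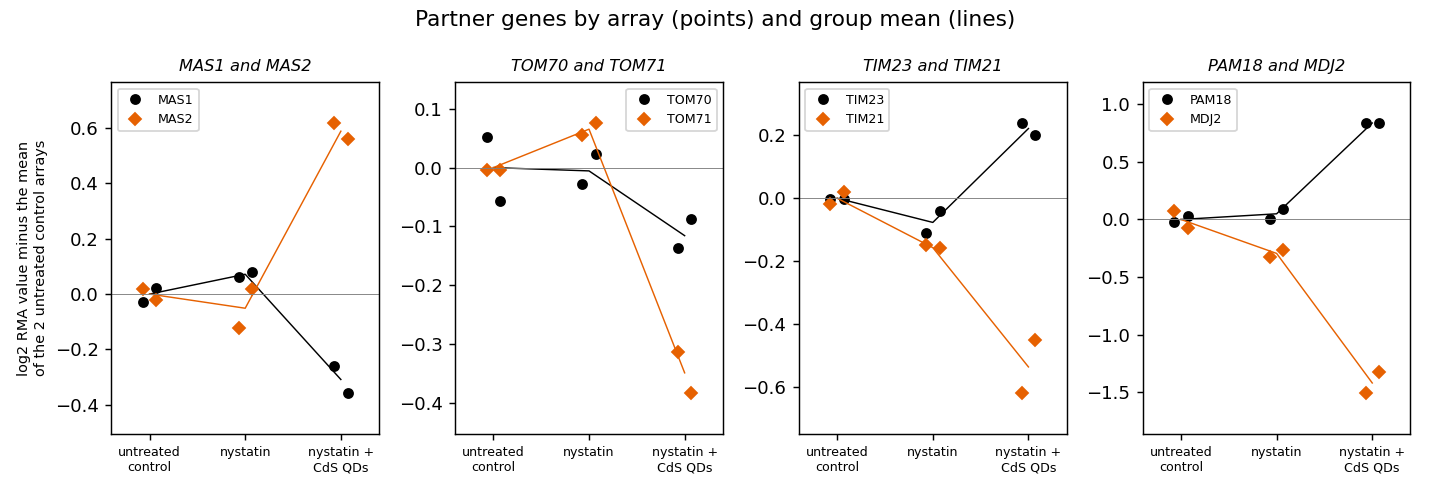
Log2 RMA value on each array (points) and group mean (lines), minus the mean of the 2 untreated control arrays, for 4 pairs of genes whose products work together or are related, picked after their values had been seen, each panel with its own vertical scale. In the CdS QDs group *MAS2*, *TIM23* and *PAM18* lie above the untreated control and *MAS1*, *TIM21*, *TOM71* and *MDJ2* below it. *TOM70* was at −0.12 and did not pass the test. *MDJ2* was dim, at 4.97 or less on every array.

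Nystatin alone gave smaller differences, and more of its calls were lost when an array was left out. Against the untreated control 8 of the 32 genes rose (10.4% of all probe sets rose) and 0 fell in limma (11.4% of all). At an unadjusted p under 0.05 there were 10 higher and 3 lower. The share of all probe sets at that unadjusted threshold was not counted, so these 2 counts have no measure beside them. By adjusted p, 21.8% of all probe sets changed either way. At the thresholds of the study 0.0364% were higher and 0.0728% lower, with none of the import genes among them. Arrays of both groups were apart for 21 of the 32 genes, against 70.1% of all probe sets. The largest of the changes were 0.42 for *TIM8* (SE 0.0471, adjusted p = 0.00330), 0.39 for *TOM5* (SE 0.049, adjusted p = 0.00451) and 0.35 for *TOM20* (SE 0.0459, adjusted p = 0.00501). The others that rose were *SAM50*, *TOM7*, *TOM6*, *PAM17* and *PAM16*, from 0.29 down to 0.18. By place, 5 of 12 outer membrane genes rose and 1 of 7 of the intermembrane space. In the inner membrane 2 of 11 rose, both of the import motor, and in the matrix 0 of 2. Only *TIM8*, *TOM5* and *TOM20* had an adjusted p under 0.01. The count fell to 2 without untreated control replicate 1, to 3 without untreated control replicate 2, to 5 without nystatin replicate 1 and to 2 without nystatin replicate 2. It was 2 with no moderation of the variance, and 0 when all 10928 probe sets of the array entered the fit. The median of the list was 0.07, against −0.01 for all probe sets.

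**Figure D3:**
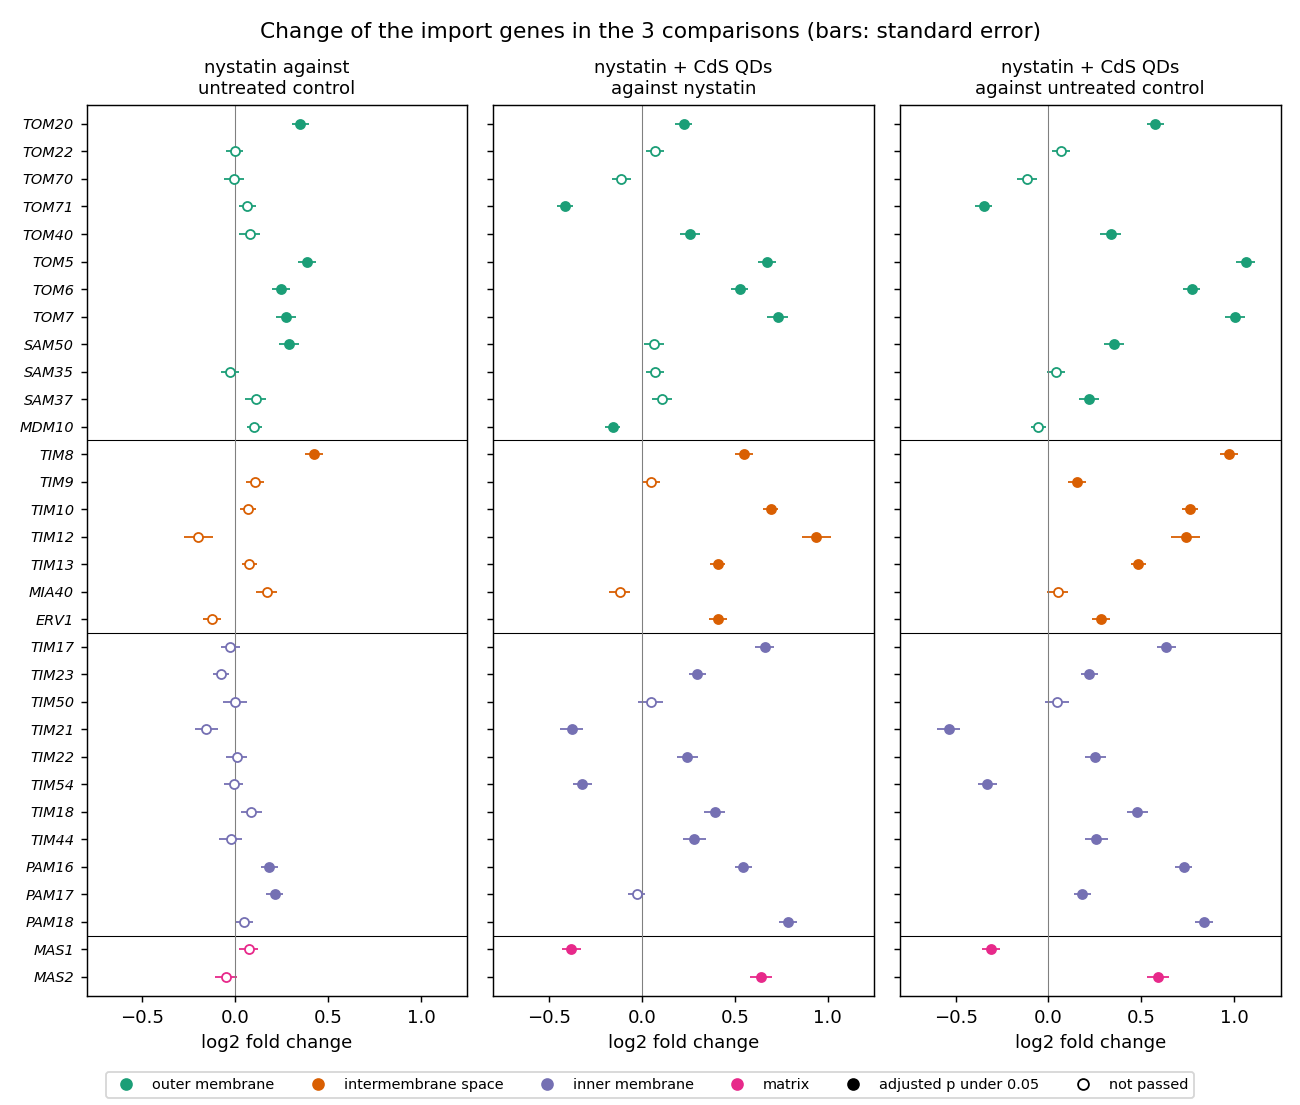
Log2 fold change (points) and its standard error (bars) of the import genes in the 3 comparisons, coloured by part of the organelle, with filled points for an adjusted p under 0.05 and open points for genes that did not pass. With nystatin alone the filled points are *TOM20*, the small TOM genes, *SAM50*, *TIM8*, *PAM16* and *PAM17*, none above 0.42, and the comparisons with CdS QDs reach from −0.54 to 1.06.

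From nystatin to nystatin plus CdS QDs, the comparison that addresses the particles given on top of nystatin, 18 genes rose (36.7% of all probe sets) and 5 fell (38.3% of all), so that 23 of 32 changed against 75.0% of all, and the median was 0.25 against −0.01 for all probe sets. None reached the thresholds of the study, which 4.87% of all probe sets did upwards and 4.66% downwards. Arrays of both groups were apart for 29 of the 32 genes, against 87.4% of all probe sets. This comparison shares its CdS QDs arrays with the one against the untreated control and its nystatin arrays with the one above. *TIM12* gave the largest rise, 0.94 (SE 0.0773, adjusted p = 3.64e-05). It was followed by *PAM18* at 0.79 (adjusted p = 8.48e-06), *TOM7* at 0.73 (adjusted p = 2.69e-05) and *TIM10* at 0.69 (adjusted p = 9.19e-06). The genes that fell were *TOM71* (−0.41, adjusted p = 1.43e-04), *MAS1* (−0.38, adjusted p = 4.09e-04), *TIM21* (−0.38, adjusted p = 0.00114), *TIM54* (−0.32, adjusted p = 9.74e-04) and *MDM10* (−0.16, SE 0.0405, adjusted p = 0.0104). *SAM50*, *SAM37*, *PAM17* and *TIM9*, which were higher than the untreated control in the CdS QDs group, did not pass against nystatin (0.06, 0.11, −0.03 and 0.05). The steps of *PAM18* were 0.05 with nystatin (adjusted p = 0.487) and 0.79 from nystatin to nystatin plus CdS QDs, and those of *TOM20* were 0.35 and 0.23.

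**Figure D4:**
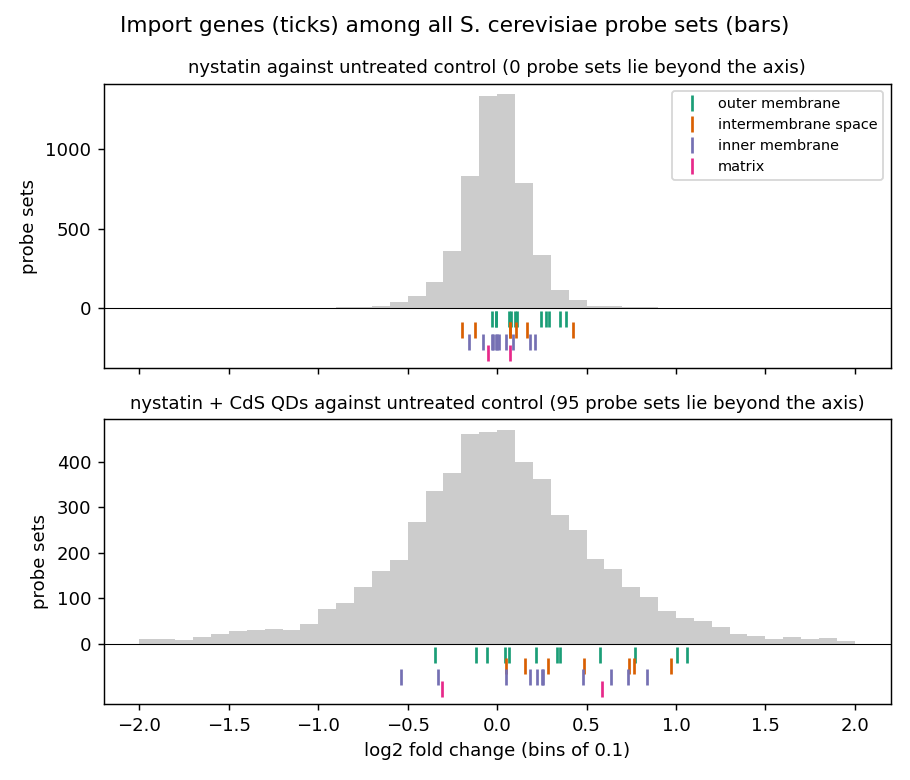
Number of *S. cerevisiae* probe sets by log2 fold change (grey bars, bins of 0.1) for nystatin alone (top) and the CdS QDs group (bottom) against untreated cells, with the import genes as ticks below, by part of the organelle. In the CdS QDs group the bars spread more widely (95 probe sets lie beyond the axis), and most ticks lie to the right of 0, with a median of 0.27.

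Genes that work beside the machinery were followed in 2 further lists. Of 17 import partners, 9 rose, 4 fell and 4 did not pass in the CdS QDs group against untreated cells (36.5% of all probe sets rose and 38.9% fell), with a median log2 fold change of 0.19 against −0.01 for all probe sets. *HOT13*, which keeps the Mia40 relay active, rose by 1.46 (SE 0.0525, adjusted p = 8.89e-07), from 6.98 and 7.02 to 8.51 and 8.41. *MBA1*, which binds mitochondrial ribosomes beside the insertase Oxa1, rose by 0.98 (SE 0.0421, adjusted p = 1.80e-06). *IMP2*, a catalytic subunit of the inner membrane peptidase, fell by 1.18 (SE 0.0451, adjusted p = 1.14e-06), from 9.11 and 9.04 to 7.89 and 7.91. Its partner subunit *IMP1* did not pass (0.08, adjusted p = 0.229), and *SOM1*, a further subunit, rose by 0.30 (adjusted p = 0.00374).

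*MDJ2*, a relative of *PAM18* that can join the motor, went from 4.97 and 4.82 to 3.39 and 3.57 and fell by 1.42 (SE 0.0781, adjusted p = 5.45e-06). It thus moved against *PAM18*. Its probe set was dim, above background on all 6 arrays but within or below the range of the **a** cell genes (3.63 to 5.79). The remaining partners that fell were *TAM41*, of cardiolipin synthesis (−0.77), and *MDM38* (−0.61). *SSC1*, the chaperone of the motor, rose by 0.60 (SE 0.0673, adjusted p = 1.60e-04). Its nucleotide exchange factor *MGE1* rose by 0.87 (SE 0.0628, adjusted p = 1.81e-05). *IMP1*, *SOM1*, *TAM41*, *MDM38*, *SSC1* and *MGE1* were picked for mention after their values had been seen.

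Of 12 genes for twin-cysteine proteins of the kind that Mia40 brings in, 10 rose, 1 fell and 1 did not pass in the same comparison (36.5% of all probe sets rose and 38.9% fell), and the median was 0.68 against −0.01 for all. *COX17*, the copper chaperone of cytochrome oxidase, went from 8.96 on both control arrays to 10.28 and 10.17 (1.27, SE 0.0555, adjusted p = 1.98e-06). *CMC2* rose by 1.04 (SE 0.0549), *CMC1* by 0.95 (SE 0.0428) and *PET191* by 0.81 (SE 0.0475), all of them genes needed for the assembly of cytochrome oxidase. The gene that fell was *COX19*, also of cytochrome oxidase assembly and picked for mention after its value had been seen, which went from 9.46 and 9.42 to 8.07 and 8.31 (−1.25, SE 0.0787, adjusted p = 9.99e-06). With nystatin alone 5 of the 12 rose and 1 fell (10.4% and 11.4% of all probe sets). Of the 17 import partners 4 rose, 3 fell and 10 did not pass with nystatin alone, beside the same shares. The calls of both further lists, with CdS QDs as well as with nystatin alone, were not followed through the alternative fits. Each of the 8 nystatin calls of the import genes was lost in at least 1 of those fits, while other fits kept them.

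Shorter import genes had the larger rises in the CdS QDs group. The 8 genes with a span of at most 330 bases in the R64 annotation (the 3 small TOM and 5 small Tim genes) all rose, by 0.16 to 1.06, with a median of 0.77. The 24 longer ones had a median of 0.22, with 14 that rose and 4 that fell. Across the 32 genes Spearman's rho of span and log2 fold change was −0.72, a description over genes that share the same 6 arrays. Over all probe sets tested rho was −0.19. Of the 302 probe sets for genes of at most 330 bases, 51.3% rose, with a median of 0.19, against 35.7% and −0.03 for the longer ones. The limit of 330 bases was set after the values had been seen, at the span of *TIM12*. With nystatin alone rho was −0.34 for the import genes and 0.04 for all probe sets.

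**Figure D5:**
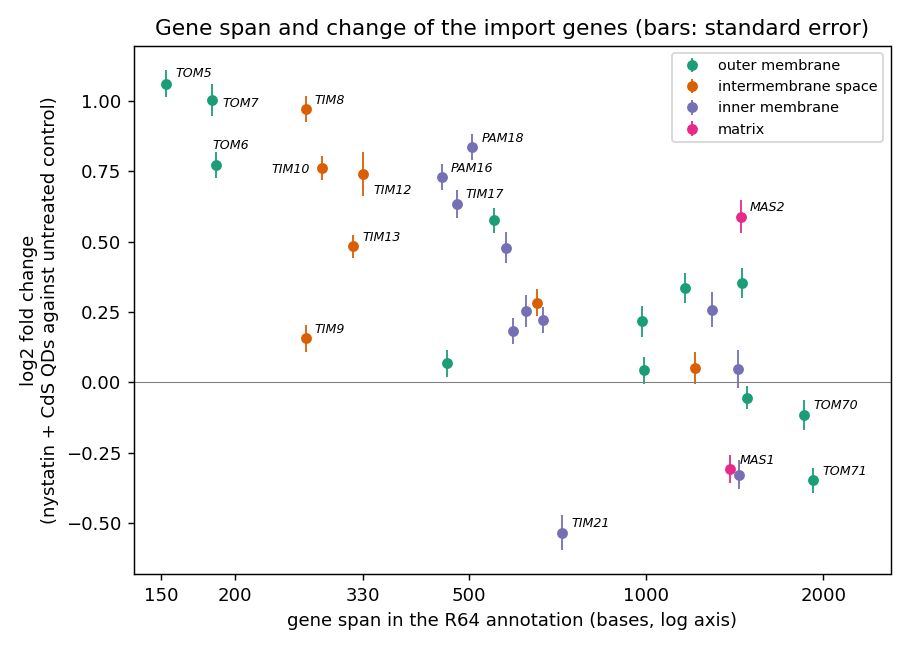
Span of each import gene in the R64 annotation (bases, log axis) against its log2 fold change in the CdS QDs group against untreated cells (points) and standard error (bars), coloured by part of the organelle. *TOM5*, *TOM7* and *TIM8* lie at the top left, *TOM71* at the bottom right, and *MAS2*, at 0.59, and *TIM9*, at 0.16, lie away from the trend.

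The import genes lie on many chromosomes, and in 4 cases they are given here beside their neighbours in the R64 annotation, which moved the same way in some and not in others. *TIM22*, at 0.25, lies between *YDL218W*, which was at −4.34 in the CdS QDs group and at 1.71 with nystatin alone, and *RRI1*, at −0.33. *MAS1*, at −0.31, lies between *RRT15*, at −0.72, and *SHH4*, a relative of a succinate dehydrogenase subunit gene, at −3.04, so that all 3 fell. *TIM21*, at −0.54, lies between *GSC2*, a glucan synthase gene that fell by nearly as much (−0.60), and *RPL26B*, a ribosomal protein gene, at 1.31. *TOM5*, at 1.06, lies between *SPN1* (0.06, adjusted p = 0.262) and *MSS18* (−0.07, adjusted p = 0.237), and neither passed the test. These cases were picked after the values had been seen.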

How the data were processed

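Transcripts of BY4742 cells were hybridised to 6 Affymetrix yeast arrays (Yeast Genome 2.0), 2 for each of 3 groups. The authors made the deposited log2 values by RMA in Expression Console, that is with background correction, quantile normalization across arrays and 1 summary per probe set, so that a shift shared by all genes cannot be seen. The 5498 probe sets paired with *S. cerevisiae* genes by the platform table and the R64 annotation were tested, and 1747 of *S. pombe*, 213 controls and 3470 with no listed gene were not. A model with a mean for each group was fitted in limma 3.58.1 (R 4.3.3), with 3 residual and 3.80 prior degrees of freedom, two-sided, with Benjamini-Hochberg adjustment over all probe sets tested. The fit was checked on simulated data. The small number of arrays limits precision. The members and lists were chosen with earlier results of these data known. Named were all members and the 4 partners of each further list with the smallest adjusted p, and other genes as stated. Promoter and protein sequences were not used here. The fit was repeated without moderation, with an intensity trend, on the 4 arrays compared, with a replicate block, with all probe sets, without dim ones, after repeated quantile normalization or median centring, on the mean of a gene's probe sets, at other thresholds and with each array left out, which assumes that the remaining array of that group varies as other groups do. Tables came from pandas 2.3.3 with numpy 2.4.6 in Python 3.11.15, and figures from matplotlib 3.10.9.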

Additional observations from a re-analysis of the deposited data

How the results depend on the processing

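At the thresholds of the study (a change of 1 log2 unit, unadjusted p under 0.01), 2 import genes stood higher and 0 lower in the CdS QDs group against untreated cells, 0 higher with nystatin alone, and 0 higher and 0 lower in the CdS QDs group against nystatin. With each array left out in turn, 19 to 22 genes rose and 4 fell in the CdS QDs group against untreated cells, 18 to 19 rose and 5 to 6 fell against nystatin, and 2 to 9 rose and 0 to 2 fell with nystatin alone. For nystatin alone, 2 genes rose with no eBayes moderation, 0 rose with all probe sets on the array and 3 rose at an adjusted p under 0.01, and 2 fell when the fit held only the 4 arrays compared. All other counts stayed within 1.5 times their value, and no single gene with a call changed sign. The replicate number as a block gave 7 genes that rose with nystatin alone (*PAM16* was lost, adjusted p = 0.0509) and changed no other count. The deviations of same-numbered arrays correlated at −0.051 to 0.025 between groups, and nothing states that the numbers pair cultures. Leaving out dim probe sets, repeating the normalization and centring changed no count. Averaging the probe sets of a gene could not move an import gene, since each has 1. With 2 arrays a group, small changes such as that of *TIM9* rest on single arrays.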
